A study of Homo sapiens with 3 samples.

Results

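The 400 cells described here were chosen by their RNA: they carried the highest share of their RNA in CYP24A1, CLSTN2, ERBB3 and OSCAR. They were 400 of 8913 cells, or 4.49%, and are called the rich cells below. They were set against the 8513 other cells. The cells come from 1 pool of NCI-H226, a human mesothelioma cell line that lacks the Hippo pathway gene NF2, and of CL3, a clone of it made resistant to the TEAD inhibitor GNE7883, each given GNE7883 or DMSO. CL3 had been grown in the inhibitor at doses that began at 0.25 µM and ended at 3 µM. It is 1 clone, and all cells share the NF2 loss. RNA and open chromatin were read in the same cells, and the lines and treatments were marked with 4 hashtags. The matrix used here holds 0 hashtag features, so the line and the treatment of a cell are not known here. The cells make up 1 sample without replicates, and nothing below is a drug or line effect.

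The 4 genes have unrelated roles. CYP24A1 is the mitochondrial cytochrome P450 that inactivates vitamin D, and its transcription is strongly induced through the vitamin D receptor. CLSTN2 encodes calsyntenin-2, a cadherin-family membrane protein known from synapses. ERBB3 is a receptor for neuregulins whose own kinase is weak and which signals mainly with ERBB2 or EGFR as partner. OSCAR is an immunoglobulin-like receptor of osteoclasts and myeloid cells that binds collagen. The line itself depends on YAP and TAZ, the coactivators that bind TEAD factors on DNA when Hippo signalling is off.

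One promoter of the 4 genes is shown, because its gene helped to choose the cells and the window could be searched for letters known to bind transcription factors. It is the CLSTN2 promoter from RefSeq (GRCh38.p14, plus strand, chr3:139934935-139935234), running 5′ to 3′ with a match to the cyclic AMP response element TGACGTCA in capitals.
CLSTN2: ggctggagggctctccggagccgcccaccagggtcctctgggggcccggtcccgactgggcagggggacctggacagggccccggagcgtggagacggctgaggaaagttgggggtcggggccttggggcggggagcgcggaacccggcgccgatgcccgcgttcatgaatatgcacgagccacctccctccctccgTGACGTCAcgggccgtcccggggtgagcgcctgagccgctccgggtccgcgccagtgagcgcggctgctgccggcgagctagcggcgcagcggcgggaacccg
That element was held by 1.85% of 35116 promoters of the same length, searched on both strands. Matches to the TEAD core GGAATG, the AP-1 site TGANTCA and the nuclear receptor motif AGGTCA were searched in the same way, and the CLSTN2 window held none of them. A match is a description of the letters and not a bound site.

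The choice rested on few molecules. Of the 400 rich cells, 52 had 1 unique molecular identifier (UMI, 1 counted RNA molecule) of the 4 genes, 193 had 2, 67 had 3 and 88 had 4 or more, up to 13. UMIs of a single one of the 4 genes were found in 172 rich cells, of 2 genes in 197, of 3 genes in 29 and of all 4 in 2. The highest share was 0.460%, which was 13 of 2825 UMIs in 1 cell. The last cell chosen and the first cell left out both had 0.0973%, or 1 of 1028 UMIs, so file order decided between them. Rich cells held 1115 of the 3278 UMIs of these genes in all cells, or 34.0%, and 2218 cells had at least 1 such UMI. The edge of the group is therefore set by rank and not by a gap in the values.

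CYP24A1 supplied most of these molecules. It had 639 UMIs in the rich cells and 1200 in the other cells, or 843 and 75.8 CPM (counts scaled to a total of 1000000 per group), and was seen in 80.75% of rich cells and 12.6% of other cells. CLSTN2 was seen in 44.25% of rich cells and 4.79% of other cells, ERBB3 in 33.5% and 4.86%, and OSCAR in 6.75% and 0.987%. These values chose the cells and are not a result. In barcodes with 10 or more but fewer than 300 UMIs and too few peak counts for a cell, which hold free RNA, CYP24A1 stood at 73.1 CPM, about its level in the other cells. A single CYP24A1 molecule in a cell can thus not be told apart from free RNA at this depth.

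The rich cells were close to the other cells in depth. Their median was 1608 UMIs from 949 genes with 13.4% mitochondrial UMIs, against 1519 UMIs from 909 genes with 13.9% in other cells. Peak counts had medians of 4124.5 in rich cells and 4032 in other cells. All cells together held 16588148 UMIs and 48410778 peak counts. Scrublet, a doublet caller, marked 0 of 8913 cells and did not work here, so doublets remain. Its median score was 0.126 in rich cells and 0.139 in other cells.

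Markers of mesothelial cells summed to 12427 CPM in rich cells, 10741 CPM in other cells and 14171 CPM in free RNA. Of 13 compared mesothelial genes 0 passed the 1.5-fold limit used below. Immune markers summed to 17.2 CPM in rich cells and 11.9 CPM in other cells, with 13 of 17 at 0 UMIs in the rich cells and free RNA at 11.4 CPM. Endothelial markers summed to 63.4 and 66.9 CPM in rich and other cells, neural and Schwann markers to 143 and 141 CPM, and epithelial and squamous markers to 2008 and 1967 CPM. Receptors of osteoclasts and myeloid cells other than OSCAR summed to 239 and 225 CPM, with 0 of 3 compared past the limit. Fibroblast and smooth muscle markers summed to 405 CPM in rich cells, 266 CPM in other cells and 283 CPM in free RNA. Of 3 compared 1 was higher past the limit, TAGLN, beside 2.07% of all compared genes, and the median log2 ratio was 0.46. The rich cells are therefore called by their genes and given no cell type name.

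Chromatin was not used to choose the cells, and in it the rich cells lay near each other. Among the 15 nearest neighbours of a rich cell by peak counts, 12.9% were rich cells on average, against 4.39% among the neighbours of other cells and 4.49% of all cells. The first is 2.88 times the share over all cells. With CYP24A1 left out of the choice, a setting added after seeing the data, it was 1.33 times, and with 800 cells chosen 1.52 times. Among cells with at least 2000 UMIs and 2000 peak counts it was 4.78 times. Of 7 clusters made from peak counts alone, cluster 2, with 1874 cells, held 198 of the 400 rich cells. That is 49.5% of rich cells (exact Clopper-Pearson 95% interval 44.5 to 54.5), against 19.7% of other cells (18.8 to 20.5). Cluster 1, the largest, held 15.5% of rich cells and 29.8% of other cells, and cluster 4 held 3.75% and 16.4%. Cluster 3 held similar shares, 19.0% of rich cells (15.3 to 23.2) and 16.6% of other cells (15.8 to 17.4). Rich cells were found in all 7 clusters. All intervals here cover counting error only, since cells of 1 pool are not replicates.

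**Figure D1:**
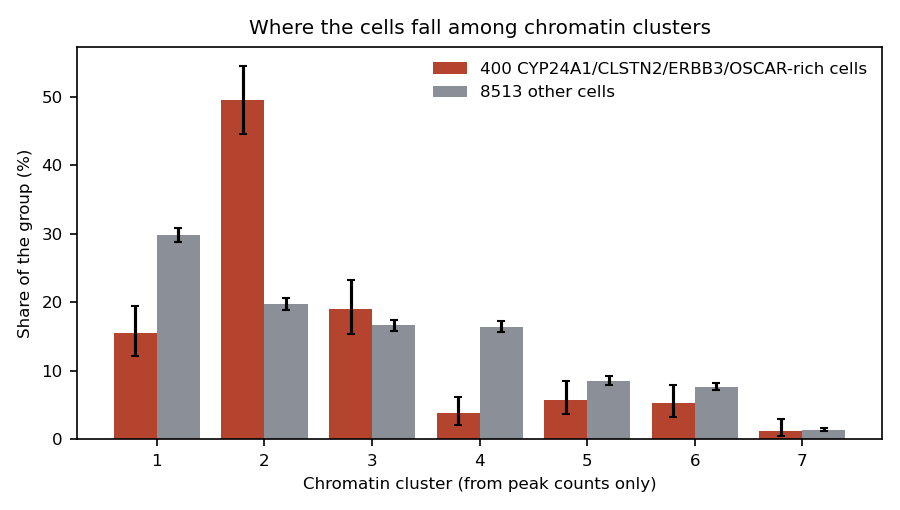
Share of each group of cells (%, vertical axis) in each of 7 chromatin clusters (horizontal axis), with exact 95% counting intervals as bars. The rich cells stand at 49.5% in cluster 2, where the other cells stand at 19.7%, and below the other cells in clusters 1 and 4.

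The share in cluster 2 climbed with the number of molecules of the 4 genes. It was 30.8% of the 52 rich cells with 1 UMI (18.7 to 45.1), 33.7% of those with 2 (27.0 to 40.8), 68.7% of those with 3 (56.2 to 79.4) and 80.7% of the 88 with 4 or more (70.9 to 88.3). Cells with more of these UMIs were also deeper, with median UMIs of 1012.5, 1424, 2158 and 2914.5 over the same 4 steps. Among other cells the share differed less by depth. At 2000 or more UMIs, 81.9% of rich cells (74.1 to 88.2) and 22.8% of other cells (21.2 to 24.5) lay in cluster 2. From 1500 to under 2000 UMIs the shares were 44.0% of rich cells and 19.1% of other cells, and below 1500 UMIs they were 28.9% (22.3 to 36.3) and 18.00% (16.8 to 19.2). The distance between the groups was smallest in the shallowest cells. Rich cells with UMIs of 2 or more of the genes lay there in 57.5% of cases (50.8 to 64.0), against 39.0% of those with 1 gene (31.6 to 46.7).

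**Figure D2:**
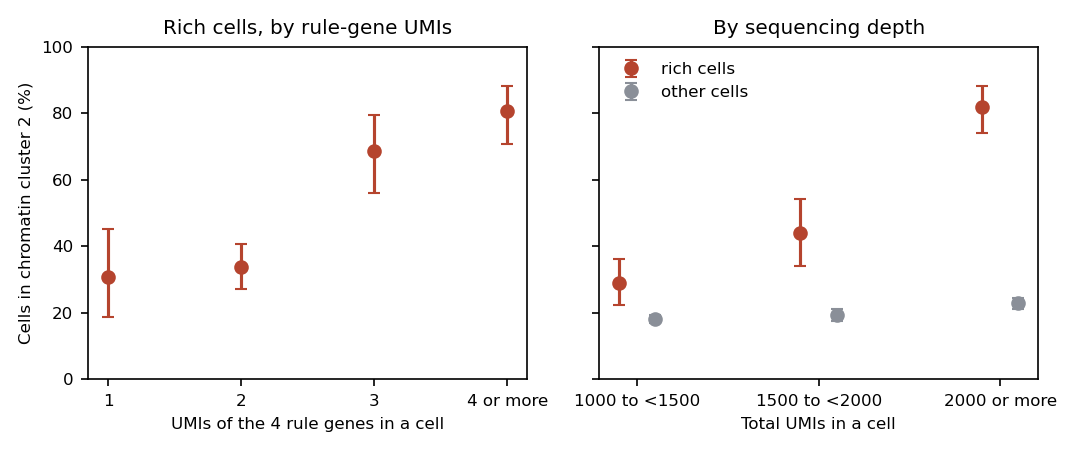
Share of cells in chromatin cluster 2 (%, vertical axis) against the UMIs of the 4 choosing genes in rich cells (left) and against total UMIs for rich and other cells (right), with exact 95% counting intervals. The share is 30.8% at 1 UMI and 80.7% at 4 or more, and the groups are furthest apart at 2000 or more total UMIs, with 81.9% of rich cells and 22.8% of other cells.

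The share was also counted by which of the 4 genes had the most UMIs in a cell. Where CYP24A1 led (195 rich cells), 53.8% of cells were in cluster 2, with an interval of 46.6 to 61.0. Where CLSTN2 led (61 cells) it was 57.4% (44.1 to 70.0), and where ERBB3 led (17 cells) it was 47.1% (23.0 to 72.2). OSCAR led in 1 cell, and in the 126 cells where genes tied it was 39.7% (31.1 to 48.8). The intervals of CYP24A1, CLSTN2, ERBB3 and tied cells overlap. By rank, the share was 55.0% for the top 100 cells, 47.0% for the next 100, 48.0% for the last 200 chosen and 29.25% for the 400 that came after them. Among the 6695 cells without any UMI of the 4 genes it was 16.6%.

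Groups of 400 cells ranked in the same way on other genes had smaller shares in cluster 2. Cells rich in HMGA2, IL1RAPL1 and SAMD3 shared 7 cells with the rich cells, or 1.75% of each group, and had 9.50% of their cells in cluster 2. Cells rich in ADGRL3, PPP2R2B and ITGB8 shared 3 cells (0.75% of each) and had 8.75% there. Cells rich in LCN2, SFTPD and CYP17A1 shared 27 cells (6.75% of each) and had 16.75% there, all against 49.5% for the rich cells.

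CYP24A1 itself was more accessible in the rich cells. Peak coordinates are those of the files, for which the submitters' notes name GRCh38.p10. Peaks within 5 kb of its start sites, on chromosome 20, had 76 counts in rich cells and 1040 in other cells. Scaled to all peak counts of each group these are 35.4 and 22.5 peak CPM, a ratio of 1.58 (95% counting interval 1.10 to 2.19, every 2 counts taken as 1 event). Weighted to the same chromatin clusters the ratio was 1.26 (0.88 to 1.74), an interval that holds 1. The interval also held 1 with ERBB3 left out of the choice (1.46, 0.998 to 2.06) and at no more than 10% mitochondrial UMIs (1.49, 0.53 to 3.404). Of 24 peaks within 50 kb, 5 had an interval above 1 and 0 below 1, against 2.03% above and 0.675% below of 209949 peaks with at least 20 counts. The peak at the start site (chr20:54173780-54174661) had 44 counts in rich cells and 531 in other cells, a ratio of 1.79 (1.10 to 2.76). A peak 3.3 kb away had a ratio of 2.14 (1.08 to 3.87).

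The other 3 of these peaks lay together about 20 kb from the start sites, in the direction in which the gene is read (chr20:54148703-54153139). Their ratios were 2.23 (1.06 to 4.22), 3.64 (1.38 to 8.18) and 3.56 (1.502 to 7.42). Summed after they had been seen, they held 52 counts in rich cells and 389 in other cells. The summed ratio was 2.88 (1.84 to 4.35). The tallest peak nearby, 47.8 kb away on the same side, had 31.2 peak CPM in rich cells and 30.6 in other cells, a ratio of 1.02 (0.70 to 1.44).

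**Figure D3:**
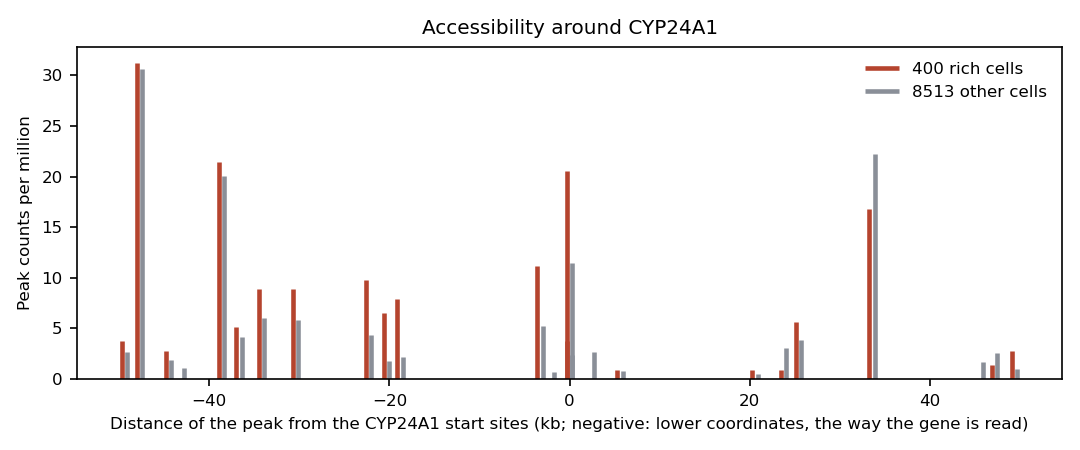
Peak counts scaled to CPM (vertical axis) in rich and other cells at each of 24 peaks, by distance from the CYP24A1 start sites (kb, horizontal axis, negative towards lower coordinates, the way the gene is read). Rich cells stand above other cells at the start site, where the ratio is 1.79, and at 3 peaks about 20 kb away with ratios of 2.23 to 3.64.

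At the other choosing genes the intervals of the start-site regions held 1. CLSTN2 had 18.6 and 13.8 peak CPM within 5 kb in rich and other cells, a ratio of 1.35 (0.81 to 2.12) and 0 of its 12 peaks within 50 kb had an interval that excluded 1. With cells chosen after thinning to 1000 UMIs the CLSTN2 ratio was 1.62 (1.10 to 2.33). ERBB3 had 73.2 and 65.3, a ratio of 1.12 (0.88 to 1.41), and 1 of its 21 peaks, 40.3 kb away (chr12:56138529-56139387), had a ratio of 2.98 (1.53 to 5.35). OSCAR had 35.0 and 33.1, a ratio of 1.06 (0.74 to 1.47), but within 50 kb it had 153 and 184 peak CPM, a ratio of 0.83 (0.71 to 0.97). One weak peak at the OSCAR start sites (chr19:54100359-54101193) had 22 counts in rich cells and 109 in other cells, a ratio of 4.35 (2.05 to 8.41). The stronger peak there (chr19:54102332-54103227) had 40 and 1171 counts, a ratio of 0.74 (0.45 to 1.15). A peak 34.2 kb away had a ratio of 0.82 (0.67 to 0.99). At these counts the intervals at CLSTN2 and OSCAR still hold ratios up to 2.12 and 1.47.

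Over all peaks few stood apart. Of 9514 peaks with at least 1000 counts, 358 were past 1.5-fold with an interval that leaves out 1 (3.76%), 80 of them higher in rich cells (0.841%) and 278 lower (2.92%). The split depended on the floor: of 25015 peaks with at least 500 counts, 512 were higher and 647 lower. Of 13025 gene start-site regions, 359 were past it (2.76%), 52 higher (0.399%) and 307 lower (2.36%). MYLK3, a myosin light chain kinase of heart muscle, had the highest regional ratio, with 46.6 peak CPM in rich cells and 23.3 in other cells, a ratio of 2.00 (1.47 to 2.68). CHML and OPN3, which share peaks, had a ratio of 1.96 (1.39 to 2.69). The region shared by IGF2, the insulin-like growth factor, and its antisense gene had 1.89 (1.35 to 2.59). RAET1E, a ligand of the natural killer cell receptor NKG2D, had 1.81 (1.32 to 2.44), and ABCG2, a drug efflux pump, had 1.68 (1.22 to 2.26). ZNF417, a zinc finger gene, was lowest, with 8.39 and 23.6 peak CPM in rich and other cells, a ratio of 0.35 (0.16 to 0.68). ACADS, a mitochondrial fatty acid dehydrogenase, had 0.42 (0.22 to 0.74).

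Of single peaks, the highest ratio was on chromosome 4 (chr4:7539454-7540353), 105 kb from the nearest start site, that of PSAPL1, with 88 counts in rich cells and 963 in other cells and a ratio of 1.97 (1.41 to 2.69). A peak at the start of PTGIR, the prostacyclin receptor (chr19:46624867-46625755), had 1.80 (1.27 to 2.505), and a peak 2.7 kb from FADS3, a fatty acid desaturase (chr11:61887806-61888716), had 1.83 (1.30 to 2.53). Among the lowest, peaks at the starts of ZNF417 and of JARID2, a subunit of the Polycomb complex PRC2 (chr6:15248272-15249156), had ratios of 0.37 (0.17 to 0.72) and 0.39 (0.22 to 0.64). A peak 12.2 kb from ABL1, a tyrosine kinase, also had 0.39 (0.20 to 0.68).

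RNA of the other genes was counted in the same molecules that chose the cells, so what follows is a description without a test. Shares leave out the 4 choosing genes, and a gene was compared with at least 20 CPM over all cells. A gene counts as higher or lower past 1.5-fold with a 95% counting interval that leaves out 1. That held for 328 of 6572 genes (4.99%), of which 136 were higher in rich cells (2.07%) and 192 lower (2.92%). The median log2 ratio of all compared genes was -0.02. Of these, 18 genes were 2-fold or more higher and 61 were 2-fold or more lower. With 800 cells chosen the count of 328 fell to 182, at 2000 UMIs and peak counts it was 522, and with other cells weighted to the same chromatin clusters it was 204.

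DISC1FP1, a long noncoding RNA on chromosome 11, had the highest ratio. It had 495 UMIs in rich cells and 3608 in other cells, or 654 and 228 CPM, a ratio of 2.87 (2.61 to 3.15), and stood at 57.5 CPM in free RNA. By rank, it had 891 CPM in the top 100 cells, 549.6 in the next 100, 594 in the last 200 chosen, 325 in the 400 that came after them and 199 in cells without a UMI of the 4 genes. TRPC4, a calcium-permeable cation channel, had 160 CPM in rich cells and 66.0 in other cells, a ratio of 2.42 (1.99 to 2.93). COL4A4, a basement membrane collagen chain, had 92.4 and 37.1 CPM (2.49, 1.92 to 3.20). EXPH5, an effector of the vesicle GTPase RAB27, had 48.9 and 19.2 CPM (2.54, 1.76 to 3.59).

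The next genes were of many kinds. PPME1, the methylesterase of protein phosphatase PP2A, had 409 CPM in rich cells and 186 in other cells, a ratio of 2.21 (1.96 to 2.48). The transporter SLC12A8 had 283 and 129 CPM (2.19, 1.90 to 2.53), and the zinc finger gene ZNF804A had 374 and 172 CPM (2.17, 1.91 to 2.45). NRP2, a coreceptor for semaphorins and VEGF, had a ratio of 2.18 (1.60 to 2.91). OCLN, a tight junction protein, had 2.13 (1.496 to 2.95), and ME3, a mitochondrial malic enzyme, had 2.11 (1.69 to 2.60). CCBE1, a secreted matrix protein of lymphatic growth, and DAGLB, a diacylglycerol lipase, both had 2.08. The cadherin CDH8 and WDR27 had 2.05, and SKP2, the F-box protein that targets the cell cycle inhibitor p27, had 2.03 (1.59 to 2.58). Of these 15 genes 14 stood lower in free RNA than in either group of cells, and 4 lie on chromosome 11. The same shares over all compared genes are not given, so neither count is read as a trait of the 15.

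The lowest ratios rested on few molecules, with at most 10 UMIs in rich cells for 11 of the 14 genes given here. CNTN5, a neural adhesion protein, was the best counted, with 42 UMIs in rich cells and 2396 in other cells, or 55.5 and 151 CPM, a ratio of 0.37 (0.26 to 0.50). Against the group rich in ADGRL3, PPP2R2B and ITGB8 the CNTN5 ratio was 0.24 (0.16 to 0.33). It was 0.89 (0.55 to 1.45) against the group rich in LCN2, SFTPD and CYP17A1. Against the group rich in HMGA2, IL1RAPL1 and SAMD3 it was 0.71 (0.46 to 1.07). SAMD3 had 12 and 769 UMIs (0.33, 0.17 to 0.57). It also helped to choose 1 of the groups above, and against the group rich in LCN2, SFTPD and CYP17A1 its ratio was 0.92 (0.37 to 2.31). The interferon-induced MX2 had 5 UMIs in rich cells and 436 in other cells, 4.17 times lower. IFIT1 and IFIT3, also interferon-induced, were 2.63 and 2.61 times lower, and HERC6, another interferon-induced gene, was 2.68 times lower. POP4, a subunit of RNase P, was 3.69 times lower, P3H4 3.30, the nucleoporin NUP50 3.06, the repressor KLF12 and the cytochrome oxidase assembly factor PET117 2.96 each, TOR1AIP1 of the inner nuclear membrane 2.87, ADAM32 2.84 and ZNF787 2.63. With CYP24A1 left out of the choice the log2 ratio of ZNF787 turned to 0.19.

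**Figure D4:**
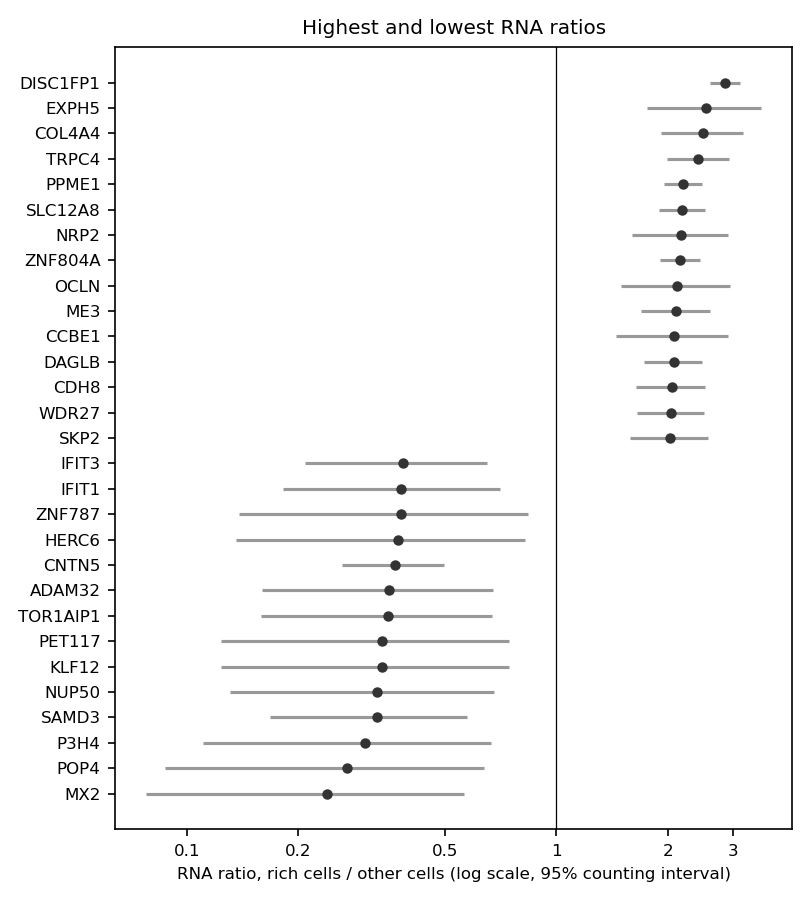
RNA ratio of rich cells over other cells (horizontal axis, log scale) for the 15 genes with the highest ratio and 14 of the lowest, past 1.5-fold, with exact 95% counting intervals. The higher genes lie between 2.03 and 2.87, and the intervals of the lower genes are wide because most had at most 10 UMIs in rich cells.

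Levels of the leading genes differed by chromatin cluster as well as by membership. The comparisons below share cells, so their values are given side by side. For DISC1FP1 the ratio of rich to other cells was 2.21 (1.96 to 2.47) inside cluster 2 and 1.91 (1.57 to 2.32) outside it, and the ratio of other cells inside to other cells outside was 2.11 (1.97 to 2.26). For TRPC4 the same 3 ratios were 1.90 (1.48 to 2.41), 1.95 (1.34 to 2.74) and 1.82 (1.59 to 2.08). For PPME1 they were 1.71 (1.48 to 1.97), 1.503 (1.17 to 1.91) and 2.05 (1.90 to 2.22). COL4A4 had 2.17 (1.58 to 2.94) inside and 1.42 (0.77 to 2.42) outside, where the rich cells had 14 UMIs. Over the 15 leading genes the ratios of rich to other cells ran from 1.48 to 2.21 inside the cluster and from 1.25 to 2.09 outside it. The interval lay above 1 for 15 of 15 inside and 11 of 15 outside, and the genes had been chosen for a high ratio.

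Start-site regions of the leading genes gave no interval above 1. Of the 15 genes, 10 had a region with enough counts, and this held for 10 of 10. DISC1FP1 had 56.4 peak CPM in rich cells and 58.1 in other cells, a ratio of 0.97 (0.74 to 1.26), and NRP2 had 27.5 and 20.7 (1.33, 0.88 to 1.93). A region runs from the first to the last start site with 5 kb on either side, so it can be long. That of DISC1FP1 held 23 peaks and that of NRP2 held 3. Among all 100 genes with higher RNA and a compared region, 5 had a region with an interval above 1 (5.00%), against 2.17% of 5250 compared genes. Of 147 genes with lower RNA, 10 had a region below 1 (6.80%), against 4.65%. Promoters of 14 of the 15 leading genes matched RefSeq, and 0 of the 14 genes held the TEAD core, which 14.0% of all promoters hold. EXPH5 was the 1 gene of 14 with an AP-1 site and the 1 gene with a nuclear receptor motif, which 7.71% and 13.8% of all promoters hold. Both matches lay in the same EXPH5 promoter, and its other promoters held none. The counts are per gene, and some genes have several promoters, while the shares are per promoter. The units differ, so the counts are not read against the shares.

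YAP/TEAD target genes were higher where they differed. Of 19 compared targets 4 were higher and 0 lower, against 2.07% of all compared genes higher. The median log2 ratio was 0.17, with 13 of 19 above 0, beside a median of -0.02 and 46.9% above 0 for all genes. For rich against other cells the list's median was 0.22 inside cluster 2 and 0.08 outside it. It was 0.11 for other cells inside against other cells outside. CCDC80, a secreted matrix protein, had 1800 CPM in rich cells and 1165 in other cells, a ratio of 1.54 (1.46 to 1.63). IGFBP3, which binds insulin-like growth factors, had 201 and 107 CPM (1.88, 1.58 to 2.22). F3, the tissue factor that starts blood clotting, had 73.9 and 40.4 CPM (1.83, 1.37 to 2.41), and the receptor kinase AXL had 173 and 111 CPM (1.55, 1.29 to 1.86). Against the group rich in HMGA2, IL1RAPL1 and SAMD3 the AXL ratio was 1.07 (0.83 to 1.37). It was 2.81 (1.98 to 4.07) against the group rich in ADGRL3, PPP2R2B and ITGB8. Against the group rich in LCN2, SFTPD and CYP17A1 it was 2.13 (1.53 to 3.02). CCN1, a classical target, had 390 and 282 CPM, a ratio of 1.38 (1.22 to 1.55), and CCN2 had 10.6 and 14.9 CPM (0.71, 0.30 to 1.42). The start-site regions of the 4 higher genes had intervals that held 1, with ratios of 1.24 (0.90 to 1.67) at F3, 1.05 (0.84 to 1.31) at AXL, 0.99 (0.70 to 1.35) at IGFBP3 and 0.92 (0.64 to 1.28) at CCDC80. The region of CCN2 had 1.28 (1.001 to 1.62).

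The F3 promoter was picked because it held 2 matches to the AP-1 site TGANTCA, and it held no TEAD core. At least 1 such AP-1 match is held by 7.71% of all promoters. Of the other higher targets, the promoters of CCDC80 and IGFBP3 held no match to any motif searched, and that of AXL was not searched. The F3 window is from RefSeq (GRCh38.p14, minus strand, chr1:94541710-94542009, matches in capitals).
F3: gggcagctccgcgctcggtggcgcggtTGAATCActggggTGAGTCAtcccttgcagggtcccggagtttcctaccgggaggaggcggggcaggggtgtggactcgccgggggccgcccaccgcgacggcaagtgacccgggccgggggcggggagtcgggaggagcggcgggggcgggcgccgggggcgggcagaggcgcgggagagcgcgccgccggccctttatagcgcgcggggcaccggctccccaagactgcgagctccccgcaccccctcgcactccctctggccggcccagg

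The factors themselves showed no difference past counting error. TEAD1 had 392 CPM in rich cells and 388 in other cells, YAP1 136 and 138, WWTR1 (TAZ) 50.2 and 49.0, TEAD4 43.6 and 39.2, and the cofactor VGLL3 135 and 131, and each interval held 1. Of 18 compared Hippo pathway genes 1 was higher, beside 2.07% of all compared genes. It was the scaffold WWC2, with 243 and 154 CPM (1.58, 1.35 to 1.84).

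Signalling partners of the choosing genes were level or lower. EGFR, a partner of ERBB3, had 374 CPM in rich cells and 486 in other cells, a ratio of 0.77 (0.68 to 0.87). Its region, of 33 peaks, had 152 and 210 peak CPM (0.73, 0.62 to 0.85). EGFR was thus lower than in all other cells together in both readouts, by less than the 1.5-fold limit. When 71 cells were chosen in the same way from those with at most 10% mitochondrial UMIs, its log2 RNA ratio was 0.015. By cluster, the EGFR RNA ratio was 0.74 (0.61 to 0.88) inside cluster 2 and 0.98 (0.83 to 1.15) outside it. Against the group rich in LCN2, SFTPD and CYP17A1 it was 0.90 (0.75 to 1.07). It was 0.55 (0.47 to 0.64) against the group rich in HMGA2, IL1RAPL1 and SAMD3. Against the group rich in ADGRL3, PPP2R2B and ITGB8 it was 0.51 (0.44 to 0.59). ERBB2 had 10 UMIs in rich cells (1.19, 0.56 to 2.25), and the ligand NRG1 had 27.7 and 41.0 CPM (0.68, 0.42 to 1.04). Of 14 compared adaptors and turnover genes of ERBB3 signalling 1 was lower, the EGFR inhibitor ERRFI1 (0.49, 0.23 to 0.90). Against the group rich in ADGRL3, PPP2R2B and ITGB8 the ERRFI1 ratio was 0.16 (0.07 to 0.32). It was 0.94 (0.36 to 2.44) against the group rich in HMGA2, IL1RAPL1 and SAMD3. Against the group rich in LCN2, SFTPD and CYP17A1 it was 0.65 (0.26 to 1.61). Of 7 compared MAPK output genes 1 was lower, the ephrin receptor EPHA4 (0.61, 0.41 to 0.88), with a median log2 ratio of -0.46. The counts of lower genes in these lists stand beside 2.92% of all compared genes.

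Vitamin D genes other than CYP24A1 gave no common direction. VDR, the receptor, had 3 UMIs in rich cells and 192 in other cells, or 3.96 and 12.1 CPM. At 3 UMIs its ratio of 0.33 has a counting interval of 0.07 to 0.97. Of 6 compared genes of vitamin D metabolism and response 1 was lower, TXNIP, an inhibitor of thioredoxin (0.54, 0.35 to 0.79). Over all compared genes 2.92% were lower and 2.07% higher. Among 16 compared synaptic adhesion genes the presynaptic neurexin NRXN3 was higher (145 and 75.8 CPM in rich and other cells, 1.92, 1.56 to 2.33), while the latrophilin ADGRL3 (0.45, 0.28 to 0.68) and IL1RAPL1 (0.52, 0.29 to 0.86) were lower. Both also chose groups above that are among the other cells. Against the group rich in LCN2, SFTPD and CYP17A1 their ratios were 0.89 (0.47 to 1.67) and 0.91 (0.41 to 2.03). ADGRL3 turned to a log2 ratio of 0.14 with CYP24A1 left out of the choice.

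Interferon-induced genes had the lowest median of the lists with at least 3 members compared. Of 22 compared members 10 were lower and 0 higher, against 2.92% of all compared genes lower, and the median log2 ratio was -0.54. By cluster, the median was -0.52 for rich against other cells inside cluster 2 and -0.32 outside it, and -0.68 for other cells inside against other cells outside. Against the group rich in LCN2, SFTPD and CYP17A1, IFI6 alone of the 10 was lower (0.39, 0.21 to 0.70). Intervals held 1 for the others, among them RSAD2 (1.52, 0.67 to 3.69), ISG15 (0.88, 0.58 to 1.33) and IFIT2 (2.12, 0.61 to 9.24). Against the group rich in ADGRL3, PPP2R2B and ITGB8, only RSAD2, IFIH1 and IFIT2 of the 10 were lower. Against the group rich in HMGA2, IL1RAPL1 and SAMD3, ISG15, IFI6, IFI44, IFIT3, XAF1 and MX2 were lower, and intervals held 1 for the rest. ISG15, the ubiquitin-like modifier, had 70.0 CPM in rich cells and 105 in other cells (0.67, 0.50 to 0.87), IFI6 had 26.4 and 59.1 CPM (0.45, 0.27 to 0.69), and RSAD2, the antiviral viperin, had 23.8 and 46.3 CPM (0.51, 0.30 to 0.82). IFI44, IFIH1, IFIT2 and XAF1 were also lower than in all other cells together, beside MX2, IFIT1 and IFIT3 above. With the 71 cells chosen at no more than 10% mitochondrial UMIs the log2 ratios of RSAD2 and IFIH1 were 0.10 and 0.058. The list summed to 1879 CPM in rich cells, 2222 CPM in other cells and 2791 CPM in free RNA, and the part of free RNA in the difference was not tested.

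Cholesterol synthesis genes leaned the other way. Of 23 compared, 22 had a log2 ratio above 0, against 46.9% of all compared genes. The median log2 ratio was 0.25. By cluster, the median was 0.17 for rich against other cells inside cluster 2, 0.06 outside it, and 0.34 for other cells inside against other cells outside. Beside 2.07% of all compared genes, 2 of the 23 were higher past the limit. These were FASN, fatty acid synthase (172 and 108 CPM in rich and other cells, 1.59, 1.32 to 1.90), and EBP, a sterol isomerase (132 and 81.3 CPM, 1.63, 1.31 to 1.99). Of 14 p53 targets 2 were lower, the repair factor XPC (0.61, 0.42 to 0.85) and the apoptosis effector BAX (0.63, 0.46 to 0.84), with a median of -0.33. Over all compared genes 2.92% were lower. XPC turned to a log2 ratio of 0.054 with CYP24A1 left out of the choice.

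**Figure D5:**
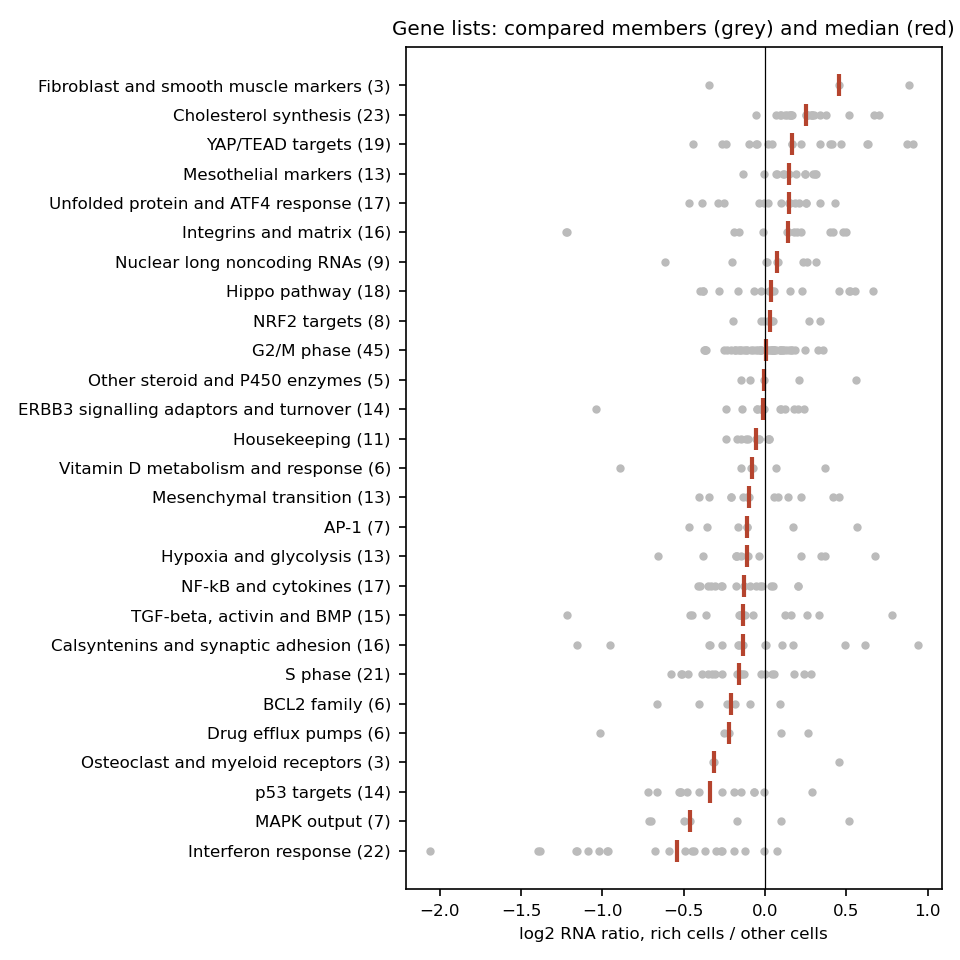
log2 RNA ratio of rich cells over other cells (horizontal axis) for the compared members of each gene list (grey points, number compared in brackets) and the list's median (red line), for lists with at least 3 members compared. The interferon list lies lowest, with a median of -0.54, and cholesterol synthesis has 22 of 23 members above 0.

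Of 15 compared genes of TGF-beta, activin and BMP signalling 1 was higher and 1 lower, beside 2.07% and 2.92% of all compared genes. INHBA, the activin A subunit, had 42.3 CPM in rich cells and 98.3 in other cells (0.43, 0.29 to 0.61), and its region had 38.7 and 59.0 peak CPM (0.66, 0.47 to 0.89). Against the group rich in LCN2, SFTPD and CYP17A1 the INHBA RNA ratio was 1.14 (0.64 to 2.05). It was 0.69 (0.42 to 1.11) against the group rich in ADGRL3, PPP2R2B and ITGB8. Against the group rich in HMGA2, IL1RAPL1 and SAMD3 it was 0.53 (0.34 to 0.83). BMP4, a bone morphogenetic protein, was higher (1.72, 1.22 to 2.36). BMP4 turned to a log2 ratio of -0.061 with CYP24A1 left out of the choice. Of 13 hypoxia and glycolysis genes 1 was higher, again beside 2.07% of all compared genes. It was ADM, the peptide adrenomedullin (1.60, 1.17 to 2.14). TAGLN, a contractile protein of smooth muscle and a known serum response gene, had 213 and 115 CPM (1.85, 1.57 to 2.18). The integrin subunits ITGA2 (0.43, 0.17 to 0.90) and ITGB8 (0.43, 0.21 to 0.77) and the lipid exporter ABCA1 (0.49, 0.31 to 0.75) were lower. ITGB8 also helped to choose 1 of the groups above. Against the group rich in LCN2, SFTPD and CYP17A1, ITGB8 had 0.65 (0.26 to 1.61) and ITGA2 1.98 (0.45 to 11.8). Against the group rich in HMGA2, IL1RAPL1 and SAMD3, ITGB8 had 0.71 (0.30 to 1.63) and ITGA2 0.13 (0.05 to 0.29). Against the group rich in ADGRL3, PPP2R2B and ITGB8, ITGA2 had 0.92 (0.28 to 3.08).

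Cell cycle genes stayed within the limit. Of 45 compared G2/M genes 0 were higher and 0 lower, with a median log2 ratio of 0.01, and of 21 S phase genes 0 were higher and 0 lower, with a median of -0.16. Of 17 genes of NF-kB and cytokines, 7 AP-1 genes, 17 of the unfolded protein and ATF4 response, 13 of mesenchymal transition and 8 NRF2 targets, 0 passed the limit. Of 11 housekeeping genes 0 passed it either, with a median log2 ratio of -0.06.

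By chromosome, RNA and chromatin differed by small amounts. Chromosome 13 held 1.93% of peak counts in rich cells and 2.11% in other cells, a ratio of 0.91, and its RNA ratio was 0.93. Chromosome 21 had 1.08 in peaks and 1.08 in RNA, and chromosome 3 had 1.05 and 1.07. On 20 of 23 chromosomes both ratios lay on the same side of 1. Whether copy number differs between the cells was not tested.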

How the data were processed

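RNA and open chromatin of 1 pool of cells were measured with the 10x Genomics Multiome assay, per the labels' protocols. Values in the deposited matrix are raw counts, UMIs for genes and cut counts for peaks, over 651860 barcodes, 36601 genes and 215590 peaks, per the file headers. The submitters' processing notes list the build GRCh38.p10 and, with no roles, MACS2, ArchR 1.0.3 and both Cell Ranger ARC 2.0.0 and Cell Ranger 2.0.0. Of peak entries 87.9% were even, so every 2 counts were taken as 1 event.

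Of 11130 barcodes with at least 1000 UMIs and 1000 peak counts, 2217 were over 20% mitochondrial UMIs and 8913 were kept. Members were ranked by their share of UMIs in the 4 genes, ties going to more UMIs and then file order. The members and gene lists were chosen with earlier results of these data known. UMIs were summed per group, scaled to CPM without the 4 genes, and divided. The 95% interval of a ratio is the exact binomial one given the summed count, not adjusted for the number of genes, and that of a share is Clopper-Pearson, both for counting error only. With 1 sample there was no test. Named genes were the 15 highest and 15 lowest past 1.5-fold, list members past 1.5-fold and 12 signalling genes given by name, leaving out genes named only by a clone. Of the 15 lowest, 14 are given and the other is not reported here. Peaks and regions were named as the 10 highest and 5 lowest, of which the text gives some, and the 4 genes' own. Regions are peaks within 5 kb of the span from the first to the last start site that the features file gives, which holds no gene bodies. For genes with distant start sites a region includes the stretch between them. Chromatin was reduced to 30 components after term frequency weighting of 182179 peaks and clustered on 15 neighbours (Leiden, resolution 0.5) with scikit-learn 1.9.0, leidenalg 0.10.2 and scanpy 1.11.5 (Scrublet). TMM factors came from edgeR 4.0.16. The ratio and interval code was tested on simulated data. Alternatives were other numbers of cells, thinning to 1000 UMIs, stricter filters, other floors, scalings, windows and cluster settings, and the rule without each gene.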

Additional observations from a re-analysis of the deposited data

How the results depend on the processing

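Settings were changed one by one, and 1620 values were recomputed. Cell filters also changed the number chosen, to 104 of 2307 cells with at least 2000 UMIs and 2000 peak counts (called 2000 below), 71 of 1592 at 10% mitochondrial UMIs and 368 of 8200 without the highest Scrublet scores. Of the 1620 values, 1382 stayed within the main interval, or within 1.5-fold for counts and values without an interval. Another 230 moved past that, and 8 whose main interval left out no difference turned to its other side. Values that stayed could still cross 1, as when the ERBB3 locus ratio of 1.12 became 0.97 after thinning. For genes past 1.5-fold, rule cells against other cells, the count of 328 became 182 with 800 cells chosen, 522 with at least 2000 UMIs and peak counts, 134 at a floor of 50 CPM, 204 weighted over chromatin clusters and 79 at 2-fold. Rich cells among the neighbours of rich cells stood at 2.88 times their share over all cells. That became 1.52 with 800 cells, 4.78 at 2000 UMIs and peak counts, and 2.11 at 10% mitochondrial UMIs. It became 1.33, 2.15, 2.19 and 2.59 with the rule without CYP24A1, CLSTN2, ERBB3 or OSCAR, settings chosen after seeing the data. The 49.5% of rich cells in 1 chromatin cluster became 39.4% with 800 cells, 83.7% at 2000, 38.0% at 10% mitochondrial UMIs, 35.25% without CYP24A1, 40.0% without CLSTN2 and 40.0% at Leiden resolution 1.0.

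The ratio at the CYP24A1 locus of 1.58 became 2.23 at 2000. It was 1.26 (0.88 to 1.74) weighted over chromatin clusters, where its interval held 1, as it did without ERBB3 and at 10% mitochondrial UMIs. At OSCAR the ratio of 1.06 became 0.68 at 10% mitochondrial UMIs and 0.83 within 50 kb, where its interval lay below 1. At CLSTN2 it was 1.62 after thinning, where its interval lay above 1. The count of 358 of 9514 peaks past 1.5-fold became 129 with 800 cells, 51 of 937 peaks at 2000, 1159 of 25015 with at least 500 counts (512 higher, 647 lower) and 42 at 2-fold. After thinning 27 peaks were higher and 199 lower, against 80 and 278, which is 2.3e2 peaks in both directions together. At 10% mitochondrial UMIs, with 71 cells chosen, 0 peaks met the count floor and none could be compared. The count of 359 of 13025 gene loci became 111, 209, 225 (of 4467), 4 (of 243) and 31 under 800 cells, thinning, 2000, 10% mitochondrial UMIs and 2-fold.

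The median of S phase genes turned to 0.083 at 2000. At 10% mitochondrial UMIs the log2 ratios of RSAD2, IFIH1 and EGFR turned to 0.10, 0.058 and 0.015. Without CYP24A1 in the rule, those of ZNF787, XPC, ADGRL3 and BMP4 turned to 0.19, 0.054, 0.14 and -0.061. That rule shared 165 of 400 cells, or 41.25%. Of 42 alternatives of the chromosome shares 22 moved past the counting interval, and all 42 kept their side of 1. TMM and median scaling divided all ratios by a factor with a log2 of -0.02, so all log2 ratios rose by that amount. 6 log2 ratios of named genes had no value under 1 setting each, because the rich cells then held 0 UMIs of the gene. Fewer peaks and loci met the floor at 2000 and at 10% mitochondrial UMIs. Other causes were not tested. No paired analysis was possible because all cells form 1 sample. No replicate could be left out for the same reason. Depth limits the lower genes most, since most had at most 10 UMIs in rich cells, and a single UMI decided membership at the edge.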
